A study of Mus musculus with 6 samples.

Results

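Hyaluronan is a long, unsulfated sugar polymer that fills the space between cells. It is spun out at the plasma membrane by hyaluronan synthases, cut by hyaluronidases, organised into a coat by proteoglycans such as versican, and bound by cell surface receptors, of which CD44 is the most widely made. In the pancreas, hyaluronan lies mostly around vessels and in the tissue that surrounds the islets, and CD44 is known from duct cells, leukocytes and mesenchymal cells more than from resting endocrine cells. The genes described here are the receptors Cd44, Lyve1 and Hmmr, the synthases Has1, Has2 and Has3, the hyaluronidases Hyal1 and Hyal2, and Vcan, which encodes versican. A gene was taken as measured where a probe set of the array carried its symbol and no other, which held for 8 of the 9 genes, among 22180 genes in all. Hyal1 was not measured in this sense, because both probe sets that name it also name Naa80.

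The arrays held RNA of pancreatic islets from mice aged 5 weeks, 3 from Sel1L-deficient and 3 from wildtype mice, all on the C57BL/6J background and labelled female. Sel1L-deficient mice were homozygous for a floxed Sel1L allele and carried Ins1Cre, a Cre recombinase gene placed in the insulin 1 locus, so that deletion was directed to β cells while other islet cells kept the gene. The wildtype mice were littermates with the same floxed alleles (Sel1L f/f) and without Cre, so the Cre insertion and the loss of Sel1L cannot be told apart. The islets of both genotypes were hand-picked and cultured overnight, and how many animals gave one array was not stated. Sel1L is the adaptor of the HRD1 ubiquitin ligase, which disposes of misfolded proteins of the endoplasmic reticulum.

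All values are log2 summaries per probe set, made by the authors with RMA, with array medians from 3.08 to 3.16. A gene below those medians was not separated from background here, and levels of different genes are not compared because their probes differ. Sel1l stood at 7.73, 7.65 and 7.68 on the Sel1L-deficient arrays, against 8.46, 8.56 and 8.76 on the wildtype arrays. The islet hormone genes Gcg and Sst had means between 12.5 and 12.6 in both genotypes, near the top of the scale. Replicate 3 of each genotype went against the sex label, with Xist at 3.08 in Sel1L-deficient and 2.93 in wildtype replicate 3 and at 9.93 to 10.4 on the other 4 arrays. Differences of the hyaluronan genes are therefore also given for the arrays of either type. In whole islets, fewer cells of a type and less RNA per cell cannot be told apart.

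The 9 genes were chosen by their role in hyaluronan biology once the measured Cd44 difference between the genotypes was known, so the differences of these genes are given as a description, with an error and no p-value. Of the 8 measured genes, 1 (Cd44) was among the 54 genes that passed a Benjamini-Hochberg adjusted p under 0.05 (limma, over all 22180 genes), where 0.243% of all genes passed and 0.0902% passed as higher. The 3 values of one genotype lay entirely above those of the other for 3 of the 8, Cd44 being higher and Lyve1 and Hmmr lower in Sel1L-deficient islets, and such separation was seen in 15.1% of all genes. The median difference of the 8, Sel1L-deficient minus wildtype, was -0.10, against 0.00044 over all genes.

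**Figure D1:**
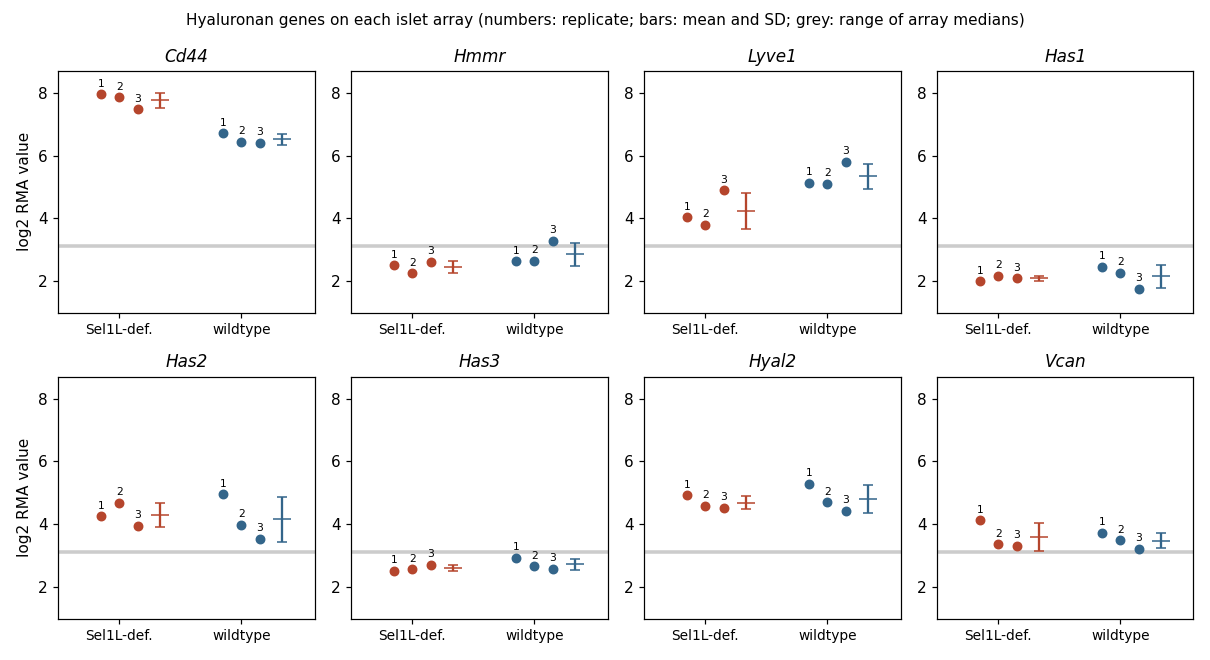
Log2 RMA value (vertical axis) of each of the 8 measured hyaluronan genes on the 3 Sel1L-deficient (left, red) and 3 wildtype (right, blue) islet arrays, numbered by replicate, with mean and SD beside them and the range of the array medians, 3.08 to 3.16, in grey. The genotypes separate for Cd44 (higher in Sel1L-deficient islets), Lyve1 and Hmmr (lower), and overlap for the other 5.

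The promoters of Cd44 and Hmmr are shown because their genes leaned in opposite directions and the Hmmr window is rich in one promoter motif that the Cd44 window lacks. They were picked after the windows had been searched, and whether the motif bears on either direction was not tested. Each is the 250 bases before the RefSeq transcript start, on the minus strand of build GRCm38.p6, at chr2:102901666-102901915 for Cd44 and chr11:40733438-40733687 for Hmmr. Capitals mark CCAAT on either strand, which reads ATTGG on the strand printed here.
Cd44: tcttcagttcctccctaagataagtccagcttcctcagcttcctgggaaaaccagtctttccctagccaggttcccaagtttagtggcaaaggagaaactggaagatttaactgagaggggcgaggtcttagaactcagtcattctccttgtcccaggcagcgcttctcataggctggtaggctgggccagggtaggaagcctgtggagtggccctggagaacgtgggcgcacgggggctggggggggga
Hmmr: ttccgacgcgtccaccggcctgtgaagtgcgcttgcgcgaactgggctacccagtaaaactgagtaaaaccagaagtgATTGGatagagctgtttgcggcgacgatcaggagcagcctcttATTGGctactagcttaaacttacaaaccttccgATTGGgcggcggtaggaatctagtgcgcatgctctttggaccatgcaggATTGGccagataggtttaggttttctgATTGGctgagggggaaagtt

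The table of promoters held 6 of the 9 genes, which were Cd44, Hmmr, Has1, Hyal1, Hyal2 and Vcan. The CCAAT box, which binds the factor NF-Y and is frequent in promoters of mitotic genes, occurred 5 times in the Hmmr window, starting 172, 129, 96, 47 and 20 bases before the transcript start. At least 1 CCAAT was found in 33.8% and 5 or more in 0.213% of all 32851 windows searched. The Cd44 window held 0 matches to CCAAT and 0 to each of the other 4 motifs searched on both strands. These were the GC box GGGCGG (in 32.7% of all windows), TATAAA (12.4%), CAGACA, a sequence bound by SMAD proteins (17.1%), and TGACGTG, the core of an unfolded protein response element (1.65%). The single GGGCGG of the Hmmr window overlapped one of its CCAAT matches. CAGACA occurred 1 time each before Has1 and Hyal1. These are matches of letters in a short window and not measured sites.

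Cd44, the main surface receptor for hyaluronan, stood at 7.95, 7.85 and 7.48 in the Sel1L-deficient islets of replicates 1, 2 and 3. In wildtype islets it stood at 6.71, 6.43 and 6.41. The lowest Sel1L-deficient array was thus above the highest wildtype array, and Cd44 lay well above the array medians on every array. The group means were 7.76 ± 0.25 in Sel1L-deficient and 6.52 ± 0.17 in wildtype islets (SD, n = 3 each), which is a log2 difference of 1.24 ± 0.15 (SE from limma, 95% interval 0.89 to 1.59), or 2.37-fold. By the size of its difference in either direction Cd44 ranked 29th of the 22180 genes. Cd44 remained higher on every Sel1L-deficient array in each fit that left out an array, with differences from 1.15 without Sel1L-deficient replicate 1 to 1.38 without Sel1L-deficient replicate 3. It was among the called genes only in the last of these 6 fits and not without Sel1L-deficient replicate 1 or 2 or any 1 wildtype replicate. Among the 4 arrays of female-type transcripts Cd44 differed by 1.33, and between the 2 of male-type transcripts by 1.07.

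The pattern of Cd44 over the 6 arrays was most closely matched by 5 named genes, by the root mean square difference of their mean-centred log2 values. They were Bmp3, a secreted BMP family protein (0.10), Neurog3, the transcription factor that starts endocrine differentiation in the embryo (0.15), Trim66 of the TIF1 corepressor family (0.17), Kdelr3, which retrieves escaped endoplasmic reticulum proteins from the Golgi (0.19), and Pigr, the polymeric immunoglobulin receptor of epithelia (0.19). Bmp3 stood at 6.42, 6.16 and 5.78 in Sel1L-deficient islets, against 5.04, 4.90 and 4.60 in wildtype islets, so that like Cd44 it was lowest in replicate 3 within each genotype. Neurog3 stood at 6.85, 7.09 and 6.74 in Sel1L-deficient islets, against 5.80, 5.76 and 5.73 in wildtype islets. Likeness over 6 arrays that differ in genotype is a description, since any gene with a similar genotype difference scores well.

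Lyve1, a receptor related to CD44 that takes up hyaluronan in lymphatic endothelium and is also made by some tissue macrophages, ran the other way. It stood at 4.03, 3.80 and 4.89 in Sel1L-deficient replicates 1, 2 and 3. In wildtype replicates 1, 2 and 3 it stood at 5.13, 5.10 and 5.80. Every Sel1L-deficient value of Lyve1 was below every wildtype value, although the gap between the nearest arrays was narrow, and in both genotypes replicate 3 was the highest. The means were 4.24 ± 0.58 in Sel1L-deficient and 5.34 ± 0.40 in wildtype islets (SD, n = 3 each), a difference of -1.10 ± 0.30 (SE, 95% interval -1.78 to -0.42) that corresponds to 2.14-fold lower. It ranked 46th of 22180 genes by size but was not among the 54 called. With the replicate number as a block, or with a covariate for the sex-linked transcripts, Lyve1 was among the called genes as lower. Under every other alternative, including each fit that left arrays out, Lyve1 was not called. Among the 4 arrays of female-type transcripts Lyve1 differed by -1.20, and between the 2 of male-type transcripts by -0.91.

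**Figure D2:**
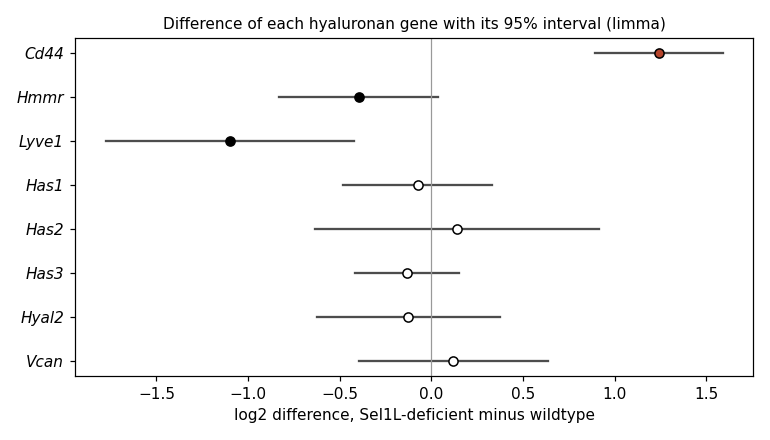
Log2 difference, Sel1L-deficient minus wildtype (horizontal axis), of each hyaluronan gene with its 95% interval from limma. Filled points (red for Cd44, black for Hmmr and Lyve1) are genes whose genotypes did not overlap, and the intervals of Cd44 (0.89 to 1.59) and Lyve1 (-1.78 to -0.42) lie on opposite sides of 0.

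Because Lyve1 and Cd44 are made by several cell types that an islet preparation can hold, marker lists of those types were set beside them. Of the 5 measured lymphatic endothelial markers, none was called in either direction (0 by limma over all genes, 0 at an unadjusted p under 0.05), and their mean level was 4.34 to 4.53 on the Sel1L-deficient and 4.20 to 4.36 on the wildtype arrays. Prox1 and Flt4 of that list differed by 0.08 and 0.20, although Prox1 is also made by endocrine cells. Only 3 of the 5 averaged above the middle of the array medians, Prox1 among them. Of the 14 leukocyte markers, 0 passed the limma threshold and 0 had an unadjusted p under 0.05. Their mean level was 3.60 to 3.69 on the Sel1L-deficient and 3.53 to 3.96 on the wildtype arrays, and 8 of the 14 averaged above the middle of the array medians. The macrophage genes Cd68 and C1qb differed by -0.02 and -0.33, and Cd3e of T cells lay at or below 1.98 on every array, under the array medians. Other macrophage genes were named after their values had been seen. Of these, Adgre1, Lyz2, C1qa and Csf1r differed by -0.31, -0.31, -0.18 and -0.16, and Itgam by 0.12. Adgre1 and Itgam lay under the array medians. The list median was -0.06, and 4 of the 14 were higher in Sel1L-deficient islets. The part of lymphatic endothelial cells and macrophages in the Lyve1 difference was not tested.

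The blood endothelial list lay higher in Sel1L-deficient islets, at 6.87 to 7.06 per array, against 6.36 to 6.76 in wildtype islets, while Lyve1 lay lower. Of its 9 measured genes 0 passed over all genes, 6 had an unadjusted p under 0.05, as 9.48% of all genes did, and the median difference was 0.44, against 0.00044 over all genes. Kdr, the main VEGF receptor, differed by 0.55 and Emcn, an endothelial sialomucin, by 0.36 (limma adjusted p = 0.266 and 0.355). The mesenchymal list also lay higher, with a median difference of 0.46 and 0 of 10 genes past the threshold (4 at an unadjusted p under 0.05, against the same 9.48% of all genes). Sparc, a collagen-binding matrix protein gene, differed by 0.45 and Rgs5 of pericytes by 0.72 (limma adjusted p = 0.4 and 0.461). The list median was 0.13 without wildtype replicate 3, and the list overlapped between genotypes at 5.27 to 5.53 on the Sel1L-deficient and 4.51 to 5.28 on the wildtype arrays. The part of endothelial and mesenchymal cells in the Cd44 difference was not tested. The 8 duct markers, relevant because duct cells make CD44, had 0 genes past the threshold (0 at an unadjusted p under 0.05) and a mean level of 5.42 to 5.85 on the Sel1L-deficient and 5.64 to 5.85 on the wildtype arrays. Epcam and Krt7 of that list differed by -0.13 and -0.12. Krt19 and Sox9 of the list, named after their values had been seen, were less precise. Krt19 differed by -0.48 with an interval of -1.12 to 0.17, and Sox9 by 0.12 with an interval of -0.50 to 0.74. Whether the share of duct cells differed was not tested.

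The acinar markers varied with the replicates. Their mean level was 6.29, 6.14 and 8.35 in Sel1L-deficient replicates 1, 2 and 3, against 7.47, 6.70 and 8.43 in wildtype replicates 1, 2 and 3. As for Lyve1, replicate 3 was thus the highest in each genotype. The same held for the duct list, for Hmmr and for the mitotic list described below. The part of acinar cells in the Lyve1 difference was not tested. Acinar medians below are of the differences of the 7 measured genes. The genotypes overlapped, with 0 of 7 genes past the threshold (0 at an unadjusted p under 0.05), and the median difference of -0.69 became -1.57 when Sel1L-deficient replicate 3 was left out, -0.33 or -0.22 when Sel1L-deficient replicate 1 or 2 was left out, and -1.25 or -0.12 when wildtype replicate 2 or 3 was left out. The digestive enzyme genes Ctrb1 and Cpa1 differed by -0.49 and -0.75. Between the 2 arrays with male-type transcripts the acinar mean differed by -0.09 and Lyve1 by -0.91. On the 4 other arrays the acinar mean differed by -0.87 and Lyve1 by -1.20. The β-cell markers, in contrast, separated the genotypes, with 5 of 10 genes that fell, where 0.153% of all genes did. With 1 array left out, 1 gene was called when this was Sel1L-deficient replicate 1 or 2 or wildtype replicate 1 or 3, 4 when it was Sel1L-deficient replicate 3 and 2 when it was wildtype replicate 2, and 0 were called without both arrays of male-type transcripts. Their mean level was 8.88 to 9.08 on the Sel1L-deficient and 9.74 to 10.01 on the wildtype arrays. Mafa, which drives insulin gene transcription, fell by 2.11 on the log2 scale (limma adjusted p = 0.000681). Ucn3, a peptide of mature β cells, fell by 2.00, the glucose transporter gene Slc2a2 by 1.38 and the proinsulin convertase gene Pcsk1 by 1.05 (limma adjusted p = 0.013, 0.0265 and 0.041). The list did not fall evenly. Ins2, Iapp and Slc30a8, named after their values had been seen, differed by -0.50, -0.09 and -0.07 and were not called.

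**Figure D3:**
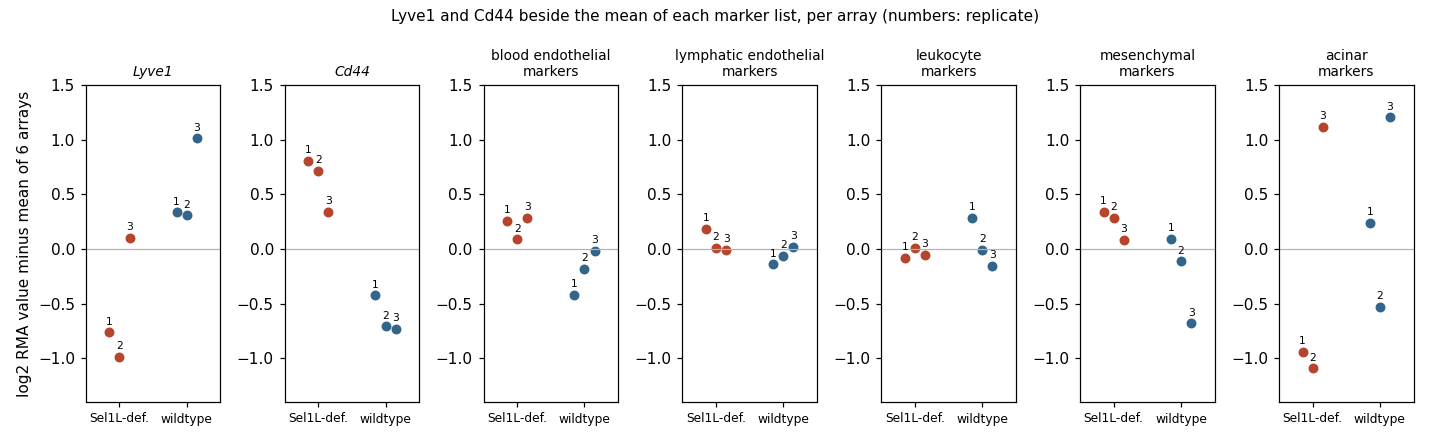
Log2 RMA value minus the mean of the 6 arrays (vertical axis) of Lyve1, Cd44 and the mean of 5 marker lists, for Sel1L-deficient (left, red) and wildtype (right, blue) arrays numbered by replicate. Cd44 separates the genotypes upward and Lyve1 downward in Sel1L-deficient islets, the blood endothelial markers separate upward by less, and the acinar markers are highest in replicate 3 of both genotypes.

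Hmmr encodes RHAMM, which binds hyaluronan at the cell surface but is best known as a spindle protein of dividing cells. It stood at 2.51, 2.25 and 2.62 in Sel1L-deficient islets. In wildtype islets it stood at 2.64, 2.65 and 3.28, and only the last of these lay above the array medians. The genotypes thus separated narrowly, in a range that was not separated from background, so the size of the difference, -0.40 ± 0.19 (SE, 95% interval -0.83 to 0.04), is not exact. Without wildtype replicate 3 it was -0.18. Between the 2 arrays with male-type transcripts it was -0.66 and on the 4 others -0.26.

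The mitotic genes listed as partners of Hmmr, several of which act on the spindle with it, had 0 of 13 measured genes past the limma threshold in either direction. An unadjusted p under 0.05 was reached by 2, as by 9.48% of all genes. Their median difference was -0.23, against 0.00044 over all genes. Of the 13, 2 were on average higher in Sel1L-deficient islets, and so were 11114 of all 22180 genes. Mean levels of the list overlapped, at 3.37 to 3.68 on the Sel1L-deficient and 3.51 to 3.88 on the wildtype arrays. Only 9 of the 13 averaged above the middle of the array medians. Leaving out wildtype replicate 3 gave a median of -0.09 and leaving out Sel1L-deficient replicate 1 gave -0.12. Ccna2, the cyclin of S phase and of entry into mitosis, stood at 4.35, 4.20 and 4.40 in Sel1L-deficient islets, against 4.73, 4.88 and 4.88 in wildtype islets, a difference of -0.52 ± 0.11 (SE, limma adjusted p = 0.174). Mki67, a general marker of proliferation, overlapped between the genotypes (difference -0.07, 95% interval -0.68 to 0.55). Aurka, the spindle kinase, was named after its values had been seen and differed by -0.31 (limma adjusted p = 0.443).

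**Figure D4:**
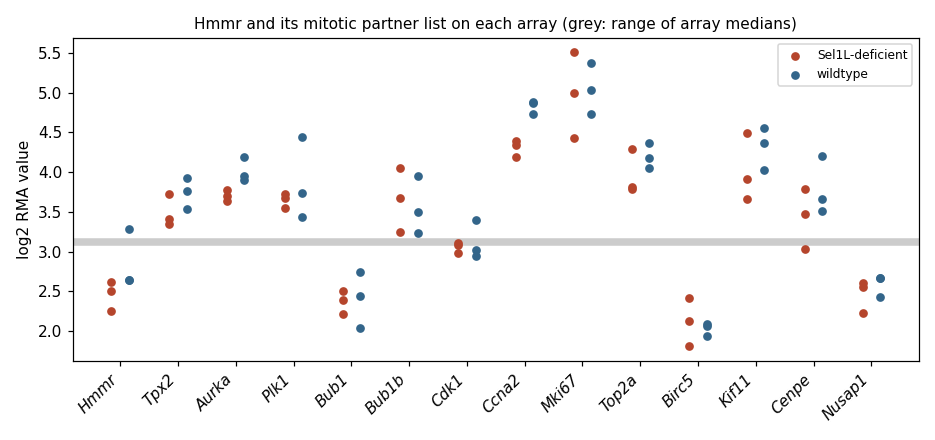
Log2 RMA value (vertical axis) of Hmmr and the 13 measured genes of its mitotic partner list on the 3 Sel1L-deficient (left of each pair, red) and 3 wildtype (right, blue) arrays, with the range of array medians, 3.08 to 3.16, in grey. For Ccna2 and Aurka every Sel1L-deficient value lies below the wildtype values, while Mki67 overlaps.

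The synthases did not separate the genotypes. Has2, the synthase of embryonic and mesenchymal tissue, stood at 4.25, 4.69 and 3.95 in Sel1L-deficient islets and at 4.95, 3.99 and 3.54 in wildtype islets, so the wildtype arrays alone spanned the Sel1L-deficient ones. Its difference was 0.14 ± 0.34 (SE, 95% interval -0.64 to 0.91), and it was 0.53 when wildtype replicate 1 was left out, -0.17 when wildtype replicate 3 was left out and -0.06 when Sel1L-deficient replicate 2 was left out. Has1, which makes hyaluronan in inflamed and fibroblastic tissue, had 2.00, 2.17 and 2.09 in Sel1L-deficient islets and 2.46, 2.27 and 1.75 in wildtype islets, all under the array medians. Has3, the synthase linked to shorter chains, had 2.52, 2.57 and 2.70 in Sel1L-deficient islets and 2.93, 2.66 and 2.59 in wildtype islets, also under the medians. The differences were -0.07 with an interval of -0.48 to 0.33 for Has1, which turned to 0.08 without wildtype replicate 1, and -0.13 with an interval of -0.41 to 0.15 for Has3, which was -0.03 without wildtype replicate 1 and -0.20 without wildtype replicate 3. Directions of Has1 and Has3 also turned with the type of array, at 0.34 and 0.11 between the 2 arrays with male-type transcripts and -0.28 and -0.25 on the 4 others. Has2 differed by 0.41 between the 2 and by -0.00036 on the 4. Neither Has1 nor Has3 was separated from background here, so the intervals of these 2 genes describe the readings and not a level of transcript.

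Hyal2, the hyaluronidase anchored at the cell surface that cuts long chains, stood at 4.93, 4.59 and 4.53 in Sel1L-deficient islets. In wildtype islets it stood at 5.29, 4.70 and 4.43, on both sides of the Sel1L-deficient values. The difference was -0.13 ± 0.22 (SE, 95% interval -0.62 to 0.37), and it turned to 0.12 without wildtype replicate 1. Its difference was 0.10 between the 2 arrays with male-type transcripts and -0.24 on the 4 others. The probe sets shared by Hyal1, the lysosomal enzyme of the pathway, and Naa80 gave 2 different readings. One stood at 4.31, 4.88 and 3.76 in Sel1L-deficient islets, against 3.77, 3.62 and 3.49 in wildtype islets, and overlapped by a single array. Its difference was 0.69 ± 0.27 (SE, 95% interval 0.04 to 1.34, limma over all probe sets). The other averaged 6.47 ± 0.29 in Sel1L-deficient and 6.44 ± 0.13 in wildtype islets (SD, n = 3 each). Neither reading can be assigned to Hyal1. Has2 and Hyal2 were each also named on a probe set shared with another gene. These differed by 0.07 and 0.01, and the genotypes overlapped on both.

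Versican, the large proteoglycan that ties hyaluronan into a pericellular coat, had Vcan values of 4.12, 3.36 and 3.32 in Sel1L-deficient islets and 3.72, 3.49 and 3.22 in wildtype islets. Sel1L-deficient replicate 1 was the highest array and the others were mixed. The difference was 0.12 ± 0.23 (SE, 95% interval -0.40 to 0.64), and it turned to -0.14 without Sel1L-deficient replicate 1 and to -0.01 without wildtype replicate 3. Between the synthases, Hyal2 and Vcan, no gene had an interval that excluded 0. For Has2, Hyal2 and Vcan, which lay above the array medians, the intervals ended at 0.91, 0.37 and 0.64. The Cd44 interval began at 0.89, so that of Has2 overlapped it. Cd44 is no neutral yardstick, since the genes were chosen with its difference known. Between the 2 arrays with male-type transcripts Vcan differed by 0.09, against 0.13 on the 4 others.

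The rest of the hyaluronan pathway was followed through 76 further genes in 7 lists, of which 71 were measured. Of these, 0 rose and 0 fell (limma, adjusted over all genes), where 0.243% of all genes passed. An unadjusted p under 0.05 was reached by 7 of the 71, and by 2103 of all 22180 genes. The median difference was -0.06. The genotypes separated upward in 3 and downward in 8 of the 71, where 7.22% and 7.84% of all genes did so.

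Genes that supply the sugar nucleotides for hyaluronan gave 3 of those 7, in both directions, with 0 of 8 past the threshold over all genes. Ugdh, which makes UDP-glucuronic acid, stood at 7.66, 7.66 and 7.82 in Sel1L-deficient islets, against 7.88, 8.09 and 8.13 in wildtype islets, a difference of -0.32 ± 0.11 (SE, limma adjusted p = 0.412). Gfpt1, the entry enzyme of the hexosamine pathway, had a difference of 0.0016 (95% interval -0.22 to 0.23). The other 2 were named after their values had been seen. Uap1, which makes UDP-N-acetylglucosamine, stood at 6.61, 6.66 and 6.64 in Sel1L-deficient islets, against 5.94, 6.24 and 6.22 in wildtype islets (difference 0.51 ± 0.11 SE, limma adjusted p = 0.208). Its paralog Uap1l1 ran the other way, at 5.66, 5.43 and 5.63 in Sel1L-deficient islets, against 6.39, 5.92 and 6.11 in wildtype islets (difference -0.57 ± 0.14 SE, limma adjusted p = 0.249).

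Among the other receptors, 0 of 5 passed. The scavenger receptor gene Stab2, which clears hyaluronan in sinusoidal endothelium and was named after its values had been seen, stood at 3.07, 3.14 and 3.32 in Sel1L-deficient islets, against 2.62, 2.77 and 2.94 in wildtype islets, around the array medians (difference 0.40 ± 0.12 SE, limma adjusted p = 0.348). Its relative Stab1 had a difference of -0.10 (95% interval -0.43 to 0.24), and Tlr2 one of 0.13 (-0.18 to 0.43). Of the genes that break hyaluronan down, 0 of 9 passed and 0 had an unadjusted p under 0.05. The lysosomal exoglycosidase genes Hexa and Gusb, which finish the work of the hyaluronidases, differed by -0.03 and -0.26.

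The hyaluronan matrix proteins, which hold the polymer in place, had 0 of 17 genes past the threshold and 0 at an unadjusted p under 0.05, and only 4 of the 17 averaged above the middle of the array medians. Ambp, which encodes the bikunin chain of inter-α-inhibitor, had a difference of 0.01 and the link protein gene Hapln1 one of -0.08. CD44 partners, proteases and splicing regulators also had 0 of 13 past the threshold and 0 at an unadjusted p under 0.05. Rdx and Msn, whose products radixin and moesin tie the CD44 tail to actin, had differences of 0.10 (95% interval -0.12 to 0.32) and 0.19 (-0.13 to 0.52). Of 6 proteases that cleave versican, 0 passed and 1 had an unadjusted p under 0.05. This was Adamts5, named after its values had been seen, at 2.21 ± 0.05 in Sel1L-deficient and 2.51 ± 0.06 in wildtype islets (SD, n = 3 each), both under the array medians (limma adjusted p = 0.374). Adamts1 and Adamts9 of that list differed by -0.03 and 0.27.

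**Figure D5:**
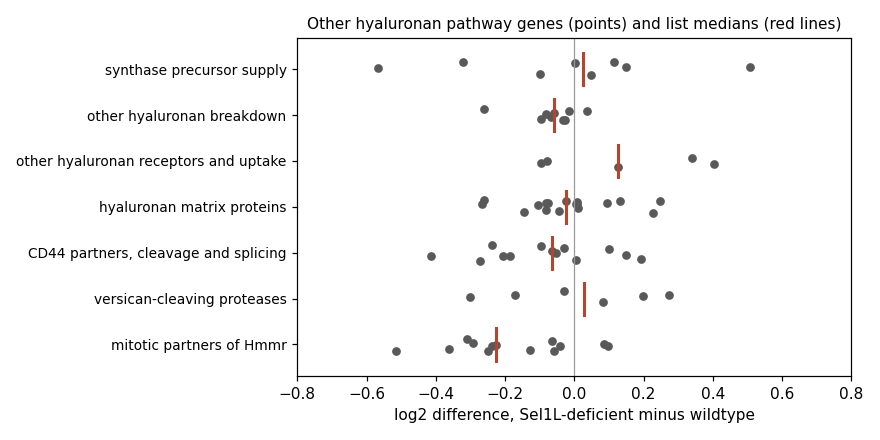
Log2 difference, Sel1L-deficient minus wildtype (horizontal axis), of the 71 measured pathway genes (points) in 7 lists, with each list's median as a red line. All points lie between -0.57 (Uap1l1) and 0.51 (Uap1), inside the differences of Lyve1 (-1.10) and Cd44 (1.24), and the mitotic list has the lowest median, -0.23.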

How the data were processed

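Total RNA was hybridised to Affymetrix arrays. The deposited values were log2 summaries per probe set made by the authors with RMA, per the submitters' processing notes, which corrects background, normalizes between arrays and can compress large ratios. The log2 scale was inferred from the deposited values, all between 0.526 and 13.0, and no detection call was given. Arrays give no read depth, and 3 per genotype limit the precision. Of 41345 probe sets, 23521 carried 1 gene symbol, 1814 several and 16010 were unnamed, and each gene took its probe set with the highest mean. Each of the 8 genes had 1 such probe set. Sel1L-deficient minus wildtype differences were fitted with limma 3.58.1 in R 4.3.3 (lmFit, eBayes, two-sided, Benjamini-Hochberg over 22180 genes), tested on simulated data as well, with no outcome of that given here. P-values measure the spread between arrays, which the labels do not assign to single animals. Promoters came from RefSeq, GRCm38.p6. The 9 genes and all lists were chosen with earlier results of these data known. Text names the 9 genes, Sel1l, up to 4 called genes of each list or else the 2 with the highest mean value, a rule of choice only, the 5 genes most like Cd44, and others named after their values were seen, where stated and for Cd3e and Xist. Alternatives were leaving out arrays, a replicate block, a dim-gene filter, another variance prior, array weights, quantile normalization, averaged probe sets and a covariate for sex-linked transcripts.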

Additional observations from a re-analysis of the deposited data

How the results depend on the processing

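Cd44 kept its direction under all 14 alternatives, as did Lyve1, and no difference of the 8 genes moved by more than the larger of its SDs over replicates. The number of genes called, 54, ranged from 4 to 29 when 1 array was left out, was 133 with a trended and robust variance prior and 1 without both arrays of male-type transcripts, an alternative chosen after seeing the data. The number called among the 8 genes, 1, ranged from 0 to 1 when 1 array was left out and was 0 without both male-type arrays. It was 2 with the covariate for sex-linked transcripts and 2 with the replicate block, Lyve1 being the added gene each time, and 36 of all genes passed with that block. The pathway count was 0 under every alternative. The replicate numbers were not treated as pairs, since the labels do not say that they mark pairs. Deviations of same-numbered arrays correlated at 0.10, 0.07 and 0.21, against -0.13 to 0.04 between different numbers, so each array correlated best with its own number. The cause of the changes between alternatives was not tested, and fits that left arrays out also had fewer arrays. Readings of Has1, Has3 and Hmmr lay near or below the array medians, where small differences cannot be resolved.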
